A study of Homo sapiens with 6 samples.

Results

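RNA polymerase III transcribes short untranslated RNAs that work inside protein-RNA particles. The RNAs described here are RMRP, the RNA of the ribonuclease MRP particle that takes part in ribosomal RNA processing, RPPH1, the RNA of ribonuclease P, which trims the 5′ ends of precursor tRNAs, RN7SL1 and RN7SL2, the 7SL RNAs of the signal recognition particle that carries nascent secreted proteins to the endoplasmic reticulum, and VTRNA1-1, VTRNA1-2 and VTRNA1-3, the small RNAs of the vault particle. They were found by name: a locus of the deposited comparison table belonged to the group if its gene field held one of these 7 names. Of the 7 names, 5 had a locus, among 24030 named loci and 117001 loci in all. RN7SL1 and RN7SL2 named no locus, and their place in the genome was examined by sequence instead.

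The cells were HEK293, a human embryonic kidney cell line. The heat shock group spent 30 minutes at 45°C, in a tube standing in a water bath, and the control group was left untreated. The study places its sequencing comparison at 30 minutes after the heat shock. Each group had 3 libraries of total RNA depleted of ribosomal RNA. Whether the 3 libraries came from separate cultures on separate days is not given in the sources used here, so the p-values below measure the spread between these libraries. The comparison asks which of these RNAs differed in level after the heat shock. In bulk RNA, a change in the RNA of each cell and a change in the cells that were sampled cannot be told apart.

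RMRP was read from chr9:35657748-35658015 (hg19), minus strand, RefSeq transcript NR_003051, 268 bases with no intron. Its sequence is shown whole because RMRP carried the most fragments of the 5 RNAs with a locus.
RMRP: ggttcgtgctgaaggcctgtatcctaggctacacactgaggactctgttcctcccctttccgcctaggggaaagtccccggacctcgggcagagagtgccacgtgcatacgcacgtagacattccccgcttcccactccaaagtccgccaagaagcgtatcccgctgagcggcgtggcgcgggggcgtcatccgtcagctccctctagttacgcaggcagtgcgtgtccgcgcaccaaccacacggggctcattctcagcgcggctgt

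RPPH1 lies at chr14:20811230-20811570, minus strand, NR_002312, 341 bases with no intron. RMRP and RPPH1 belong to the polymerase III genes whose promoter lies outside the transcribed part, as for the U6 small nuclear RNA, and so the 40 bases before each start are shown with the first 20 bases of the RNA. Capitals mark TATAA, searched on both strands. It began 32 bases before the start of RMRP. It matched both strands in an overlapping TTATAA that began 31 bases before the start of RPPH1. Among 35116 RefSeq promoter windows of GRCh38.p14, 5.48% held TATAA on either strand in the same 40 bases.
RMRP start (chr9:35657996-35658055): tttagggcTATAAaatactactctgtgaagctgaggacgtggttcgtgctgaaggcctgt
RPPH1 start (chr14:20811551-20811610): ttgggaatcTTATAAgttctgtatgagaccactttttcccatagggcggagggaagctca

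The 3 vault RNAs lie on the plus strand of chromosome 5, at chr5:140090861-140090958 (VTRNA1-1, NR_026703, 98 bases), chr5:140098511-140098598 (VTRNA1-2, NR_026704, 88 bases) and chr5:140105744-140105831 (VTRNA1-3, NR_026705, 88 bases). Their promoters include an A box and a B box within the RNA itself, as in tRNA genes. TATAA was also present before 2 of the 3, beginning 22 bases before the start of VTRNA1-1 and of VTRNA1-2, and was not in the 40 bases before VTRNA1-3. The sequences are printed to show how alike the 3 RNAs are. Capitals mark the B box, searched as GTTCGANNC on both strands. It began at base 66 of VTRNA1-1 and at base 56 of VTRNA1-2 and VTRNA1-3. The same letters were in 0.259% of the promoter windows cut to 98 bases and in 0.225% of those cut to 88 bases, and RMRP and RPPH1 did not hold them.
VTRNA1-1: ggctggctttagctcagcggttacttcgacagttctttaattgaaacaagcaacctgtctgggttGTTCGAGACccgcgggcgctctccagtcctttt
VTRNA1-2: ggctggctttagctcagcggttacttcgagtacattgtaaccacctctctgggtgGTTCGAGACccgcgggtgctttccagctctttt
VTRNA1-3: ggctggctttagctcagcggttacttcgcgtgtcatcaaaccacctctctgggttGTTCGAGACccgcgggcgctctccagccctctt

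VTRNA1-2 and VTRNA1-3 were 87.6% identical over 89 aligned columns. VTRNA1-1 was 81.6% identical to VTRNA1-2 and 83.7% identical to VTRNA1-3, over 98 aligned columns each. With these differences, each of the 5 named RNAs matched 1 place in GRCh37 at 90% identity or more over at least 90% of its length.

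For 7SL the genome holds copies that are far closer to each other. RN7SL2 of the GENCODE annotation (chr14:50329271-50329567, minus strand, 297 bases) matched 3 places at 95% identity or more. A plus-strand copy on chromosome 14 was 98.7% identical to RN7SL2, with 4 differing bases of 297. It lies between RPS29 and LRR1, as RN7SL1 does in the gene order of RefSeq, and the deposited table holds a locus with no gene name there, at chr14:50053301-50053706.

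Fragments could be counted behind each value. Cufflinks, the program that made the values, gives every FPKM (fragments per transcript length and per library size) an interval that reaches 2 times the FPKM, divided by the square root of the fragments behind it, to each side. Solved for the fragments, this gave whole numbers, within 0.01, for 92.6% to 97.1% of the values below about 20 fragments of genes with a single transcript. From long annotated transcripts, the libraries held about 18000000, 16200000 and 8880000 mapped fragments in controls 1, 2 and 3 and 10900000, 11600000 and 13900000 in heat shock libraries 1, 2 and 3. These estimates are rounded to 3 digits. Intervals on fragments cover counting error only.

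Control library 2 and heat shock library 3 stood apart from the rest of their groups in the scale of their FPKM. Over the 1008 named loci whose annotated transcripts exceeded 10 FPKM in all libraries, a median-of-ratios size factor was computed for each library and is called the common factor below. It was 1.02, 0.448 and 0.955 in controls 1, 2 and 3, and 2.19, 2.39 and 0.50 in heat shock libraries 1, 2 and 3. Transcripts with no assigned strand numbered 141632, 194489 and 45600 in controls 1, 2 and 3, and 17304, 30334 and 151889 in heat shock libraries 1, 2 and 3, so control 1 was near heat shock 3 in this respect. Because this factor differed between the groups, the results are given with FPKM as deposited, and fold changes also with FPKM divided by the factor. The median log2 fold change of the 17011 tested named loci was 0.35 on the first scale. It was -0.38 on the second, over the 16898 of them that were also tested on that scale. The heat-inducible chaperone genes HSPA1A, HSPA1B, DNAJB1 and HSPH1, used to check the treatment, lay above all controls in all 3 heat shock libraries, though no locus passed the adjusted threshold. HSPA1B, for example, had 12.1, 9.39 and 15.5 FPKM in the controls, against 142, 757 and 34.3 FPKM after heat shock (log2 fold change 3.58 ± 1.06, SE, limma, adjusted p = 0.799, 3 libraries a group). Divided by the factor, the 4 log2 fold changes were 1.11 for HSPA1A, 2.75 for HSPA1B, 1.29 for DNAJB1 and 1.90 for HSPH1. HSPA1A and HSPA1B are near-identical copies and may share reads. Of the 6 genes used as HEK293 markers, vimentin (VIM) ranged from 85.3 to 929 FPKM, the shared locus of the keratins KRT8 and KRT18 from 35.9 to 54.6 FPKM, the neurofilament genes NEFM and NEFL from 1.44 to 13.0 FPKM and PAX2 from 0.856 to 88.0 FPKM. Of the 4 genes of other cell types, the leukocyte gene PTPRC and the liver gene ALB were at or below 0.344 FPKM in every library, but the endothelial gene PECAM1 reached 9.03 FPKM and the fibroblast gene COL1A1 ranged from 4.90 to 61.7 FPKM. Their part in the results was not tested.

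RMRP was among the most abundant named RNAs by FPKM in every library. Its FPKM was 7379, 2092 and 6122 in controls 1, 2 and 3, and 17695, 13270 and 2277 in heat shock libraries 1, 2 and 3. Heat shock libraries 1 and 2 lay above all controls, while heat shock library 3 lay near the lowest control, so the groups overlapped. In fragments, RMRP had 10350, 2624 and 4226 in the controls, against 15045, 11957 and 2453 after heat shock. The exact Poisson interval was widest, relative to its value, in heat shock 3, at 2357 to 2552, so counting error was far smaller than the spread between libraries. The mean was 5197 ± 2762 FPKM in the controls and 11081 ± 7939 FPKM after heat shock (SD, n = 3 each), and the difference did not pass the test. The log2 fold change was 0.83 ± 0.94 (SE, limma, adjusted p = 0.799), and an exact two-sided permutation test gave p = 0.5, where the smallest p that 3 against 3 libraries allow is 0.1.

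Divided by the common factor, RMRP came to 7221, 4667 and 6410 in the controls, against 8069, 5558 and 4557 after heat shock. On this scale the groups lay within the same range and the log2 fold change was -0.027 ± 0.26 (SE, limma, adjusted p = 1.00). The exact permutation p was 0.9. RMRP thus varied between libraries much as the median of the 1008 loci did. Over the 6 libraries the Pearson correlation of its log2(FPKM + 1) with the log2 of the factor was 0.98, as a description of 6 points that also share the depth scale. The factor was added after the values were seen. Under planned scalings the log2 fold change of RMRP stayed above 0. It was 0.53 with size factors over all loci and 0.25 with size factors over 4403 named loci. Rescaled to a common FPKM sum, it was 0.21.

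The value of RMRP depended on single libraries. Its log2 fold change as deposited was 1.75 without heat shock 3, 0.27 without heat shock 1, 0.27 without control 2, 0.48 without heat shock 2 and 1.18 without control 1, and none of these passed an adjusted p of 0.05. Without both control 2 and heat shock 3, a choice made after the values were seen, it was 1.19 (limma, adjusted p = 0.0886). No locus of the whole table was called after adjustment in either direction, which is 0.0% of 33516 tested loci, and RMRP was not among the 3.02% with an unadjusted p under 0.05 and a change of over 2-fold. No member had its groups apart either, against 1.93% of the tested loci with every heat shock library above every control and 2.46% with every one below.

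Rank within a library does not depend on the scale of the library. RMRP ranked 5, 10 and 5 among 17011 named loci in controls 1, 2 and 3, and 5, 6 and 7 after heat shock. Its place among the 10 highest loci by FPKM was thus kept in all 6 libraries. This rank rests on the length correction of Cufflinks, which gave RMRP an effective length of about 78.0 of its 268 bases.

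RPPH1 followed the same order of libraries at a much lower level. It had 190, 53.4 and 162 FPKM in controls 1, 2 and 3, and 334, 316 and 69.1 FPKM in heat shock libraries 1, 2 and 3. Again heat shock 1 and 2 lay above all controls, and heat shock 3 lay between control 2 and control 3. The fragments behind these values were 501, 126 and 211 in the controls, against 534, 536 and 140 after heat shock. The mean was 135 ± 72.2 FPKM in the controls and 240 ± 148 FPKM after heat shock (SD, n = 3 each). The log2 fold change of 0.71 ± 0.89 (SE, limma, adjusted p = 0.801) was smaller than its error, and the exact permutation p was 0.5. Without heat shock 3 the log2 fold change was 1.45, without control 2 it was 0.14, without heat shock 1 it was 0.32 and without heat shock 2 it was 0.36. Without both control 2 and heat shock 3 it was 0.88 (limma, adjusted p = 0.170).

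Divided by the common factor, RPPH1 came to 186, 119 and 170 in the controls, against 152, 132 and 138 after heat shock. The 3 heat shock libraries then lay within the range of the controls (log2 fold change -0.14 ± 0.41, SE, limma, adjusted p = 1.00). Under the planned scalings named for RMRP, in the same order, the log2 fold change of RPPH1 was 0.41, 0.13 and 0.086. RPPH1 ranked 496, 2310 and 704 among the named loci in the controls, against 553, 683 and 1743 after heat shock. Control 2 and heat shock 3 gave the lowest ranks, and the groups overlapped. The mean percentile was 93.1 ± 5.84 in the controls and 94.2 ± 3.84 after heat shock (SD, n = 3 each, exact permutation p = 0.8).

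**Figure D1:**
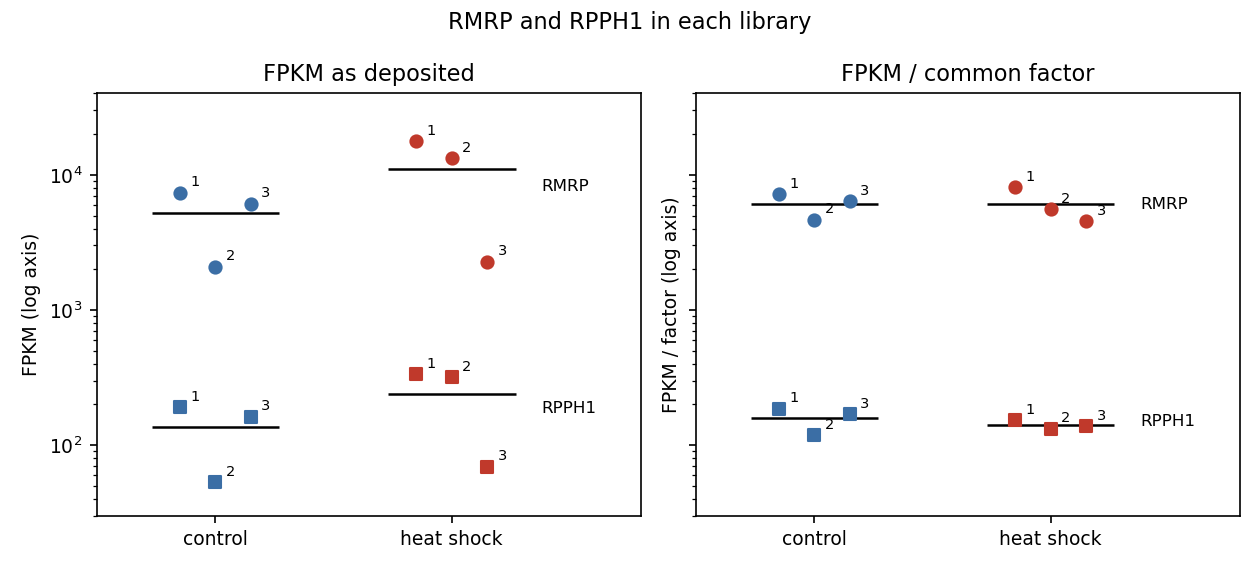
RMRP (circles) and RPPH1 (squares) in each of the 3 control and 3 heat shock libraries, as deposited FPKM on the left and divided by the common factor on the right, on log axes. Numbers beside the points are the library numbers and bars are group means. As deposited, heat shock libraries 1 and 2 lie above all controls and heat shock library 3 lies low. After division, RMRP spans 4557 to 8069 and RPPH1 spans 119 to 186 with no gap between the groups.

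The RNAs of both ribonuclease particles moved together. The Pearson correlation of their log2(FPKM + 1) over the 6 libraries was 0.99, given as a description, since all loci of a library share its scale. By this measure RPPH1 ranked 37 among 10723 other named loci with a mean of at least 10 FPKM. The 3 loci most like RMRP were HIST1H2AH, a histone H2A gene (r = 0.997), and the loci UCHL5 and TROVE2 (r = 0.997), whose values were identical because they draw on the same transcripts. In all, 2405 of the named loci had a correlation over 0.9 with RMRP and 59 had one over 0.99.

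Set against each other, RMRP and RPPH1 give a measure that the scale of a library cannot move. The RMRP fragments per RPPH1 fragment were 20.7 (95% exact binomial interval 18.9 to 22.6), 20.8 (17.4 to 25.1) and 20.03 (17.4 to 23.1) in controls 1, 2 and 3. After heat shock they were 28.2 (25.8 to 30.8) in library 1, 22.3 (20.5 to 24.4) in library 2 and 17.5 (14.8 to 20.9) in library 3. The controls lay close together, whereas the heat shock libraries lay on both sides of them. The interval of heat shock 1 did not overlap that of any control, and heat shock 3 was the lowest library. The means were 20.5 ± 0.42 and 22.7 ± 5.34 (SD, n = 3 each), which did not differ beyond the spread of the heat shock libraries (exact permutation p = 0.7, two-sided, adjusted p = 1.0 over 10 within-library measures). On FPKM the same ratio was higher, at 38.9 in control 1, since Cufflinks divided the fragments of RMRP by an effective length of about 78.0 bases and those of RPPH1 by about 147 bases. Levels of these short RNAs set against each other thus depend on that correction.

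**Figure D2:**
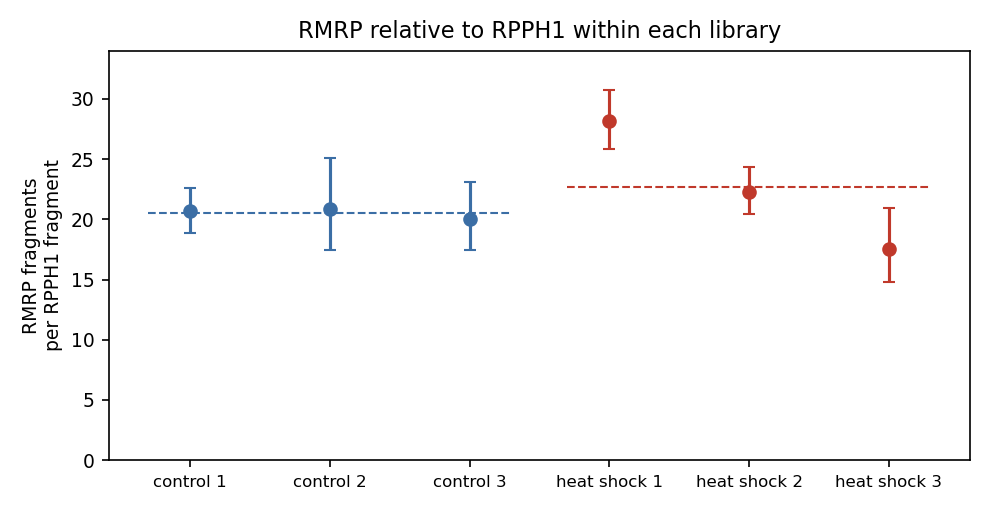
RMRP fragments per RPPH1 fragment in each library, with the axis from 0. Bars are 95% exact binomial intervals, which cover counting only, and dashed lines are the group means. The controls sit at 20.03 to 20.8, and the heat shock libraries at 28.2, 22.3 and 17.5.

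The vault RNAs were at the limit of what these libraries could count. VTRNA1-3 had 68.2, 0 and 69.3 FPKM in controls 1, 2 and 3, and 225, 159 and 44.4 FPKM in heat shock libraries 1, 2 and 3. Behind these values stood 2, 0 and 1 fragments in the controls, against 4, 3 and 1 fragments after heat shock. A single fragment was worth 34.1 to 69.3 FPKM for this RNA, because its effective length was about 1.62 to 1.63 of 88 bases. The groups overlapped in both FPKM and fragments.

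Summed over libraries, VTRNA1-3 had 3 fragments in the controls and 8 after heat shock. Relative to the mapped fragments of each group this was a ratio of 3.16 with a 95% exact interval of 0.757 to 18.5, which covers counting only and includes 1. For all 3 vault RNAs the sums were 4 and 9 fragments, a ratio of 2.66 (0.743 to 11.8). The fitted log2 fold change of VTRNA1-3 was 2.80 ± 1.46 (SE, limma, adjusted p = 0.799, exact permutation p = 0.3) with a pseudocount of 1 FPKM and 3.91 with 0.1 FPKM, so its size depended on the pseudocount. Divided by the common factor it was 2.33 ± 1.60 (SE, limma, adjusted p = 0.957). Without control 2, the library listed at 0, it was 0.76, and without both control 2 and heat shock 3 it was 1.45 (limma, adjusted p = 0.132). A difference in VTRNA1-3 was not detectable with so few fragments.

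VTRNA1-1 was listed at 37.6 FPKM in heat shock 1, which was 1 fragment, and at 0 in the other 5 libraries. VTRNA1-2 was listed at 34.1 FPKM in control 1, again 1 fragment, and at 0 in the other 5. No fold change is given for either RNA. A count of 0 in a library allows up to 3.69 fragments (upper bound of the 95% exact Poisson interval). VTRNA1-3 held the most vault fragments in every library with any, at 2 of 3 in control 1, 1 of 1 in control 3, 4 of 5 in heat shock 1, 3 of 3 in heat shock 2 and 1 of 1 in heat shock 3. With a share of 80.0% in heat shock 1, the exact binomial interval was 28.4% to 99.5%, and the order of the 3 vault RNAs was not settled within any single library.

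**Figure D3:**
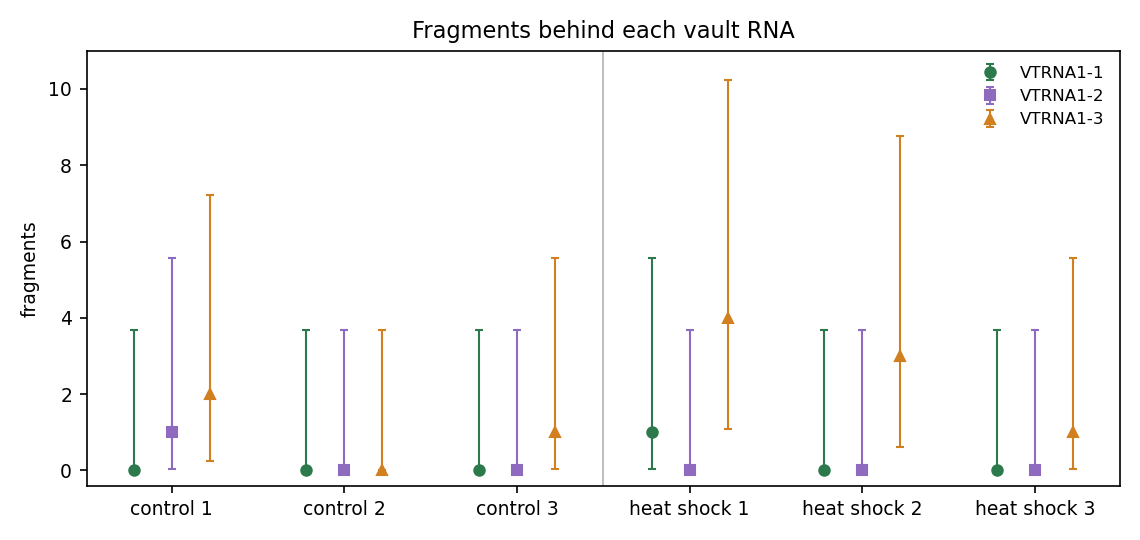
Fragments behind VTRNA1-1 (circles), VTRNA1-2 (squares) and VTRNA1-3 (triangles) in each library, with 95% exact Poisson intervals. The highest value is 4 fragments, for VTRNA1-3 in heat shock 1, and all intervals of VTRNA1-3 overlap each other.

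By the same measure of likeness, the named loci nearest to VTRNA1-3 were the shared locus of ARID3C and DCTN3 (r = 0.986) and the loci SMC4 and MIR15B (r = 0.986), which draw on the same transcripts. These correlations rest on at most 4 fragments of VTRNA1-3 in a library.

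In FPKM the order RMRP, RPPH1, VTRNA1-3 held in all 6 libraries, with VTRNA1-1 and VTRNA1-2 below or level with VTRNA1-3. The 95% interval that Cufflinks gave VTRNA1-3 reached that of RPPH1 in control 3 and in all 3 heat shock libraries, for example 0 to 450 FPKM beside 305 to 363 FPKM in heat shock 1, so these neighbours in the order did not differ beyond their error there. RMRP stood clear of both in every library.

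In the libraries that listed a 7SL transcript at the unnamed locus, its FPKM was much higher than that of the vault RNAs. The 7SL values could not be compared between the groups. At the unnamed locus described above, the assembled transcript, which carried no strand, had 17404, 6717 and 17647 FPKM in controls 1, 2 and 3, from 38465, 9354 and 14778 fragments. In heat shock 3 it had 3734 FPKM from 11027 fragments. In heat shock 1 and 2 no transcript was listed there at all. The authors' pooled values for this locus were 2507 FPKM in control and 6213 FPKM after heat shock, so the place was not empty in the pooled comparison, and no fold change is given from the listed values. In the 4 libraries with a value, 7SL at this locus exceeded RMRP in FPKM.

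Nothing was listed at RN7SL2 itself in any library. At RN7SL3 (chr14:50320336-50320632), which was 96.9% identical to RN7SL2 over 292 bases, the transcript with no strand had 498, 0 and 146 FPKM in the controls, against 2666, 0 and 56.0 FPKM after heat shock. Heat shock 1, with no transcript at the unnamed locus, had the highest value at RN7SL3, while heat shock 2 had no transcript at any of the 3 places. How reads were shared between these near-identical copies was not tested, and the values of each copy are uncertain.

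The other polymerase III RNAs examined were a list of 13 names, of which 5 had a locus. The most abundant of the list was 7SK (RN7SK), which holds the elongation factor P-TEFb in an inactive particle. It had no locus in the table, and its values come from the transcripts that cover its annotated place, chr6:52860419-52860746. They were 112007 and 79270 FPKM in controls 1 and 2, and 322815, 402169 and 52491 FPKM in heat shock libraries 1, 2 and 3. In control 3 the only transcript there, at 48268 FPKM, was on the opposite strand and joined 7SK with its neighbour, and it stands apart from the other values. In FPKM as deposited, heat shock 1 and 2 were again the highest libraries and heat shock 3 lay below controls 1 and 2. The 7SK values were not divided by the common factor. That factor was 1.02 and 0.448 in controls 1 and 2 and 2.19, 2.39 and 0.50 in heat shock 1, 2 and 3. The order of the libraries thus includes their scale. In fragments, heat shock 1 and 2 were also highest, at 577222 and 521671. Heat shock 3, however, had 156545 fragments against 382377 in control 1 and 129964 in control 2. Its place relative to control 2 thus depended on the measure.

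RNU6ATAC, a small nuclear RNA of the minor spliceosome, had 2 and 1 fragments at its annotated place in controls 2 and 3 (20.97 and 19.1 FPKM). In heat shock 1 and 2 it had 4 and 6 fragments there (61.9 and 87.6 FPKM). In control 1 and heat shock 3 only another overlapping transcript was listed, which was not counted, so no count is given for these libraries. The table's wider RNU6ATAC locus was tested at a log2 fold change of 1.43 ± 0.99 (SE, limma, adjusted p = 0.799) as deposited and 0.58 after division by the common factor. VTRNA2-1, once counted as a vault RNA, was listed at 0 in all 6 libraries. The loci named BCYRN1, RNY4 and RNY5 lie elsewhere than those genes do in GENCODE, so neither their values nor a summary of the list is given.

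**Figure D4:**
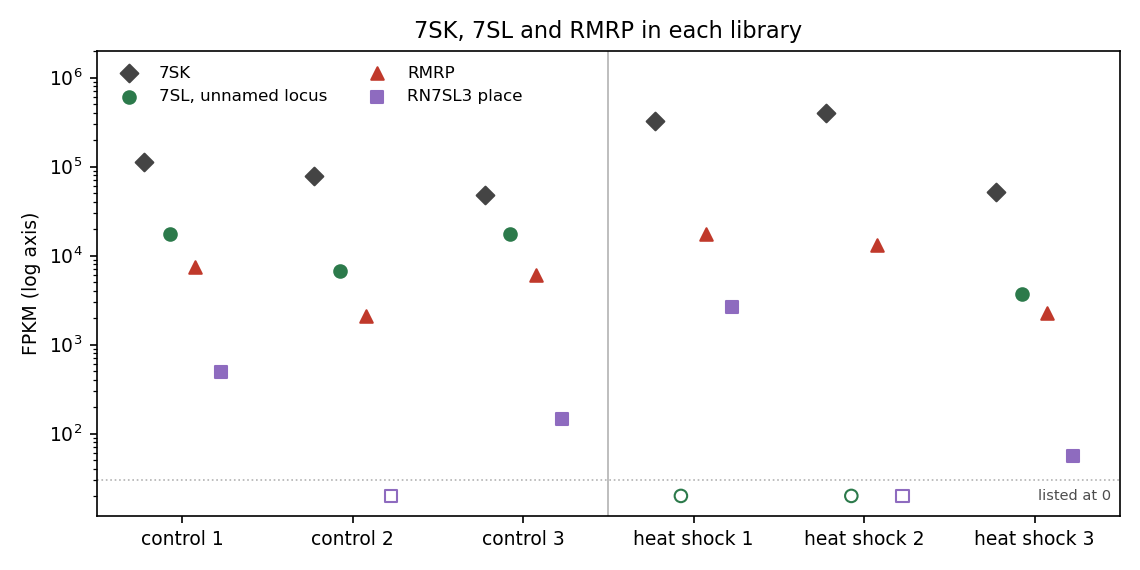
FPKM on a log axis of 7SK, 7SL at the unnamed locus, RMRP and the RN7SL3 place in each library. Open symbols under the dotted line are libraries in which no transcript was listed. RMRP and 7SK are highest in heat shock 1 and 2, the libraries in which 7SL at the unnamed locus was not listed.

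Genes for the proteins of these particles were described as lists. The value of such a gene is the sum over its whole locus, so it includes transcripts with no strand inside its introns. A log2 fold change above 0 was found for 61.3% of the tested named loci as deposited and for 31.0% after division by the common factor, and the lists are read against these shares. Of the 11 protein genes of RNase P and RNase MRP, 0 were called, and 9 were above 0 as deposited and 7 after division. Their median was 0.88 as deposited and 0.038 after division by the common factor, against 0.35 and -0.38 over the named loci. RPP30, a shared subunit of both enzymes, had the highest value of the list, from 6.51, 8.28 and 4.40 FPKM in the controls to 65.7, 19.8 and 2.63 FPKM after heat shock (log2 fold change 1.25 ± 1.11, SE, limma, adjusted p = 0.799, and 0.39 after division). RPP14 had the lowest, at -0.54 ± 0.92 and -1.24 after division. The groups overlapped in RPP30, where heat shock 3 was the lowest library.

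The 6 protein genes of the signal recognition particle had a median log2 fold change of 0.82 as deposited and -0.035 after division, with 0 called. All 6 were above 0 as deposited and 2 after division. SRP72 was highest, with 14.9, 4.69 and 11.7 FPKM in the controls, against 76.2, 63.3 and 5.56 FPKM after heat shock (1.61 ± 1.08, SE, limma, adjusted p = 0.799, and 0.78 after division). SRP68, which binds 7SL together with SRP72, was lowest at 0.26 ± 0.78 and -0.56 after division. Of the 3 vault genes, TEP1 was highest at 1.49 ± 1.34, which rested on 74.7 FPKM in heat shock 1 against 0.906 to 2.14 in the other 5 libraries, and PARP4 was lowest at 0.092 ± 0.99. After division these were 0.93 and -0.64. All 3 vault genes were above 0 as deposited and 1 after division. The median of the vault genes was 0.61 as deposited and -0.24 after division.

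Subunits of RNA polymerase III itself numbered 13, and 10 had a log2 fold change above 0 as deposited and 4 after division, with 0 called and a median of 0.60 as deposited and -0.11 after division. POLR3B, the second largest subunit, was highest at 1.56 ± 1.08 and 0.73 after division. Among the 19 initiation factors and regulators, 17 were above 0 as deposited and 5 after division, and 0 were called, with medians of 0.50 and -0.30. TBP, the TATA-binding protein, had 6.46, 3.46 and 5.74 FPKM in the controls, against 23.1, 34.8 and 5.14 FPKM after heat shock (1.52 ± 0.98, SE, limma, adjusted p = 0.799, and 0.73 after division). BRF2, the TFIIB-related factor used at promoters of the U6 and RPPH1 kind, was lowest at -0.54 ± 0.92 and -1.30 after division.

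Of the 8 genes for RNA processing and decay, 7 were above 0 as deposited and 5 after division, and 0 were called. XRN1, a cytoplasmic 5′ to 3′ exonuclease, was highest at 2.22 ± 1.36, with 42.2 and 30.0 FPKM in heat shock 1 and 2 and 0.426 FPKM in heat shock 3, against 6.07, 0.389 and 0.92 FPKM in the controls. DIS3L2, a 3′ to 5′ exonuclease of uridylated RNAs, was lowest at -1.09 ± 0.89. After division these were 1.44 and -1.84. The median of this list was 0.85 as deposited and 0.029 after division. Across all 6 lists the medians lay above that of the named loci on both scales, given as a description without a test. No gene passed the adjusted threshold on either scale. The reference depended on the loci and transcripts taken. With annotated transcripts alone, the median over 9778 tested loci was 0.66 as deposited, and list medians were not computed that way. The lists are therefore not shown to stand above comparable genes.

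**Figure D5:**
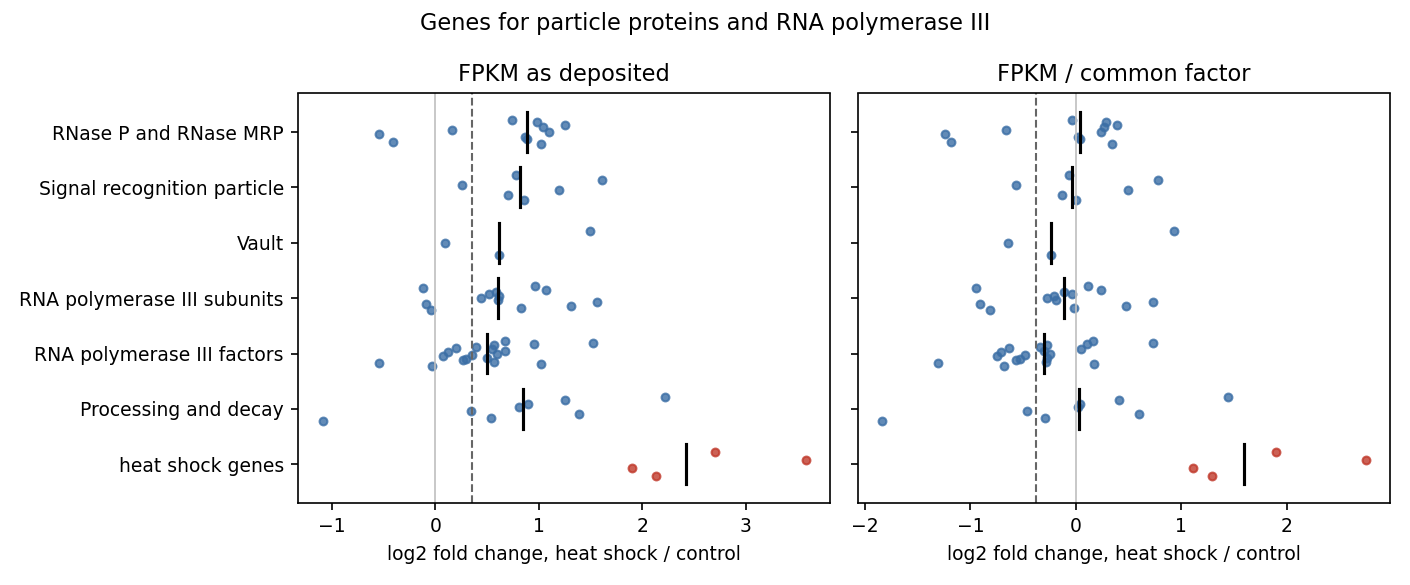
Log2 fold change of heat shock over control for each tested gene of 6 lists and the 4 heat shock genes (red), as deposited on the left and after division by the common factor on the right. Black bars are list medians and the dashed line is the median of the named loci, 0.35 on the left and -0.38 on the right. The 6 list medians lie between 0.50 and 0.88 on the left and between -0.30 and 0.038 on the right.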

How the data were processed

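Total RNA of 3 control and 3 heat shock libraries of HEK293 cells was grouped by the sample titles. Per the submitters' processing notes and the study's methods, the authors used FastQC 0.10.1 for quality checks and Trimmomatic 0.3.0 for trimming. TopHat2 aligned the reads to hg19, and Cufflinks 2.0.2, guided by the annotation of that build, assembled the transcripts of every library. The deposited assemblies give each transcript an FPKM, an interval and a coverage, with no scaling between libraries stated. The authors' deposited table of merged loci gives 1 pooled FPKM a group, used here for locus names and as the authors' value. Its fold changes and p-values were not used. The authors' pooled values, control then heat shock, were 7275 and 34045 FPKM for RMRP and 197 and 763 FPKM for RPPH1. They were 0 and 39.7 FPKM for VTRNA1-1, 16.8 and 0 FPKM for VTRNA1-2 and 70.1 and 481 FPKM for VTRNA1-3. For RMRP, RPPH1 and VTRNA1-3 the pooled heat shock value lay above every heat shock library, and the cause was not tested.

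A locus took the summed FPKM of transcripts with at least 50% of their span inside it, on any strand. Each named RNA had 1 annotated transcript in each library and none joined with a neighbour. The 33516 loci that averaged 1 FPKM or more were compared on log2(FPKM + 1) with limma 3.58.1 (R 4.3.3, eBayes with a trend, Benjamini-Hochberg adjustment). Such fold changes understate changes of low values. A call needed an adjusted p under 0.05 and a change of over 2-fold. Exact permutation tests were two-sided. Fragments were solved from the Cufflinks interval, and mapped fragments (about 8880000 to 18000000 a library) are the median over annotated transcripts longer than 3000 bases with over 100 fragments.

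Sequences came from GRCh37, the build of hg19, in which 2 loci, both on the mitochondrial chromosome, ended past the chromosome's length. Copies were searched with BLAST+ 2.17.0, and other RNAs were placed by GENCODE release 44 mapped to GRCh37. The RNAs and gene lists were chosen with earlier results of these data known. Named genes were all listed polymerase III RNAs, the highest and lowest gene of each protein list (1 gene and 1 sequence are not reported here), the 4 heat shock genes, and the 3 loci most like RMRP and VTRNA1-3. Alternatives were other pseudocounts, scalings, minimum values, transcript sets, model settings, a replicate block and leaving out libraries. The common factor, the smallest-locus assignment and leaving out control 2 with heat shock 3 were added after the values were seen.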

Additional observations from a re-analysis of the deposited data

How the results depend on the processing

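No locus was called in the analysis as reported. The count of higher and lower loci was 1 and 0 with annotated transcripts alone, 1 and 0 with stranded transcripts only, and 10 and 2 with the replicate number as a block. With the p-value unadjusted it was 421 and 591. Leaving out single libraries gave 0 to 1256 higher and 0 to 2731 lower loci, the highest of each without heat shock 3. RMRP, RPPH1 and VTRNA1-3 did not pass the adjusted threshold under any alternative run. VTRNA1-1 and VTRNA1-2 did not under those that could be fitted, which leaves out the minimum of 10 FPKM for both, heat shock 1 left out for VTRNA1-1 and control 1 left out for VTRNA1-2. RMRP and RPPH1 kept a log2 fold change above 0 under every alternative but the common factor over annotated transcripts, where they came to -0.027 and -0.14. Leaving out single libraries, RMRP ranged from 0.27 to 1.75, RPPH1 from 0.14 to 1.45 and VTRNA1-3 from 0.76 to 3.83. VTRNA1-3 stayed above 0 throughout.

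Differences within a library, heat shock minus control, changed sign in these cases. The percentile difference of RMRP was -0.0029 without control 2 and heat shock 3 and ranged from -0.0059 to 0.0088 when single libraries were left out. That of RPPH1 was -0.15 with annotated transcripts alone, -0.088 with stranded transcripts only and -0.11 without control 2 and heat shock 3, and ranged from -2.31 to 3.24 over single libraries left out. The share of RMRP in the sum of RMRP and RPPH1 ranged from -0.11 to 0.44 percentage points and the share of VTRNA1-3 among vault RNAs from -4.77 to 28.6 over the same. The cause of these changes was not tested. Same-numbered control and heat shock libraries did not deviate together from their group means (correlations 0.21, -0.49 and -0.43). These deviations include the scale of each library, and control 2 went with heat shock 3 (0.64), the libraries with the low factors. They therefore cannot show whether the numbers pair the cultures. With the block, RMRP had a log2 fold change of 0.83 and an adjusted p of 0.961 from limma. The vault RNAs are limited by their few fragments, and their short effective length makes 1 fragment worth 34.1 FPKM or more.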

Other observations

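The protein-coding neighbours of RMRP and RPPH1 were looked at because their starts lie close by, and they were chosen after their values were seen. PARP2, a poly(ADP-ribose) polymerase gene, begins on the plus strand 202 bases from the start of RPPH1 and shares the gap between them as a promoter region. It had 12.3, 13.9 and 10.1 FPKM in the controls and 22.9, 23.4 and 17.7 FPKM after heat shock, so all heat shock libraries lay above all controls, which also holds for 1.93% of all tested loci. Its log2 fold change was 0.77 ± 0.82 (SE, limma, adjusted p = 0.799) as deposited and -0.033 after division by the common factor. CCDC107 begins 271 bases from the start of RMRP. It had 6.18, 3.25 and 4.0 FPKM in the controls and 81.8, 10.3 and 3.13 FPKM after heat shock, where heat shock 3 was the lowest of all 6 libraries (log2 fold change 1.55 ± 1.15, SE, limma, adjusted p = 0.799, and 0.76 after division).

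RNY1, a Y RNA bound by the Ro60 protein, lies at chr7:148684228-148684340 within a locus with no gene name. Short transcripts were listed there in control 3 (353 FPKM from 30 fragments), heat shock 1 (40.8 FPKM from 12 fragments) and heat shock 2 (478 FPKM from 22 fragments). The other 3 libraries listed only longer transcripts. A fragment was worth far fewer FPKM in heat shock 1 than in heat shock 2, so these FPKM values are not compared. For RNY3 and RNU6-1, no transcript of their own size was listed in any library.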
